A study of Mus musculus with 8 samples.

Results

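Type I interferon response genes were examined as a group in CD4 single-positive (CD4SP) thymocytes with and without Pggt1b, the gene of the catalytic subunit of geranylgeranyl transferase I, an enzyme that attaches a lipid of the mevalonate pathway to small GTPases. The group was a list of 46 genes named by symbol: the interferon receptor subunits, the transcription factors downstream of them, and genes that interferon induces. A gene was measured where a probe set of the array carried its symbol and no other, and the brightest such probe set over all 8 arrays stood for it. By that rule 40 of the 46 genes were measured, of 22180 genes on the array. A total of 39 of them passed an intensity filter and were tested, among 11585 genes tested in all. Mx1 lay below the filter, 5 genes lay on probe sets shared with another symbol, and Ifi44 was not analysed here.

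Type I interferons bind the IFNAR1 and IFNAR2 receptor pair, which activates JAK kinases and, through them, STAT proteins that join IRF9 and bind interferon-stimulated response elements in promoters. The induced genes encode sensors of viral RNA, enzymes that degrade or block RNA, GTPases, the ubiquitin-like protein ISG15, and factors that sustain or restrain the response. In the thymus interferon is made in the absence of infection, and thymocytes that have passed selection meet it in the medulla before they leave.

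The samples were CD4SP thymocytes sorted from mice of C57BL/6 background, 4 labelled WT and 4 labelled Pggt1b_KO (KO below), with 1 array per sample. CD4SP thymocytes are T cells of the CD4 lineage that have passed selection. How Pggt1b was deleted and in which cells, the age of the mice and any treatment are not stated in the sources used. Whether each replicate is a separate animal is not stated either, and p-values therefore describe the spread among these 8 samples, which may be technical. Replicate numbers follow the order of deposit and pair no samples. Pggt1b itself read 8.36, 8.38, 8.29 and 8.36 in WT and 7.89, 7.57, 7.69 and 7.86 in KO, on the log2 scale of the arrays, with all KO arrays below all WT arrays. Its difference was -0.59 (standard error, SE, 0.072, adjusted p = 0.00141), and no source used here gives the part of the gene that was removed. All values below are log2 intensities after RMA, and a difference is KO minus WT.

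The promoters of several of these genes hold letters of the interferon-stimulated response element, and stretches are shown from called genes with matches before the start, and from Ifit1 and Ifit3, which were not called and hold matches too. A script searched 250 bases before to 50 bases after each start in RefSeq promoters of the build GRCm38.p6 for GAAANNGAAA and, for the other strand, TTTCNNTTTC, with overlapping matches allowed. Capitals mark the matches, and each stretch runs 5′ to 3′ along the strand of its gene. Isg15 (chr4:156200855-156200916, minus strand) had 3 overlapping matches, Oas3 (chr5:120777705-120777754, minus) had 1, and Ddx60 (chr8:61928014-61928086, plus) had 2. Apol9a (chr15:77411104-77411159, minus) and Apol9b (chr15:77729015-77729070, plus), close paralogs, carried an identical stretch with 2 overlapping matches. Ifit1 (chr19:34640765-34640833, plus) and Ifit3 (chr19:34583353-34583436, plus), neighbours in the IFIT cluster, had 2 each.
Isg15: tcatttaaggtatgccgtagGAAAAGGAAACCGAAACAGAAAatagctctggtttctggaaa
Oas3: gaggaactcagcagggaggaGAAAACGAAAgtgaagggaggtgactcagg
Ddx60: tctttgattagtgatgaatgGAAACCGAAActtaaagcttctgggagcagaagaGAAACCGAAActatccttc
Apol9a and Apol9b: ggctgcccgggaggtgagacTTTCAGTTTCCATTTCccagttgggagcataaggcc
Ifit1: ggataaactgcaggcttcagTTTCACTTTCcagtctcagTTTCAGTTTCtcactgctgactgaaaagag
Ifit3: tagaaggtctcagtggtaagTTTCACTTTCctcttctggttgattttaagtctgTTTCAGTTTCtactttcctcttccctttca

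Before the results, 2 features of the arrays bear on them. WT replicate 4 and KO replicate 4 stood apart together on genes of the interferon-inducible Trim12 and Trim34 cluster, which were named after their values were seen. Trim12c read 7.93, 7.86, 7.93 and 6.03 in WT and 8.08, 7.70, 8.20 and 6.30 in KO, so replicate 4 of both genotypes was low. Trim12a read 9.54, 9.69, 9.77 and 10.46 in WT and 9.83, 9.83, 9.82 and 10.76 in KO, and replicate 4 of both was high. Trim34a also had its highest WT value, 8.37, and its highest KO value, 8.52, in replicate 4. Trim12a and Trim12c are close paralogs whose probe sets may share part of their signal, though replicate 4 moved in opposite directions in them. The heat-shock genes Hspa1a and Hspa1b also varied between arrays, with mean levels between 5.27 and 8.58 in WT and values of 10.34, 9.79, 4.57 and 8.25 in KO replicates 1 to 4. Counts of calls, and the calls they change, are given below without these arrays too.

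Across the group, 11 of the 39 tested genes were lower in KO at an adjusted p under 0.05 and 0 were higher by limma. Of all 11585 tested genes, 8.53% were lower and 4.45% higher by the same rule, and 13.0% were called in either direction. The 11 called genes made up 28.2% of the tested members. At an unadjusted p under 0.05, 19 members were lower and 0 higher. By that cutoff 2221 of the 11585 tested genes were lower and 1157 higher. The same 11 genes were those in which every KO array lay below every WT array, a pattern that 13.5% of all tested genes showed. No member showed the opposite pattern, which 6.79% of all tested genes did, and groups that do not overlap in either direction made up 20.3% of all tested genes. The difference was below 0 in 37 of the 39 members and in 59.1% of all tested genes. Its median was -0.27 over the members, with quartiles of -0.45 and -0.11, and -0.030 over all tested genes. In bulk samples, fewer cells of a type and less RNA per cell cannot be told apart.

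**Figure D1:**
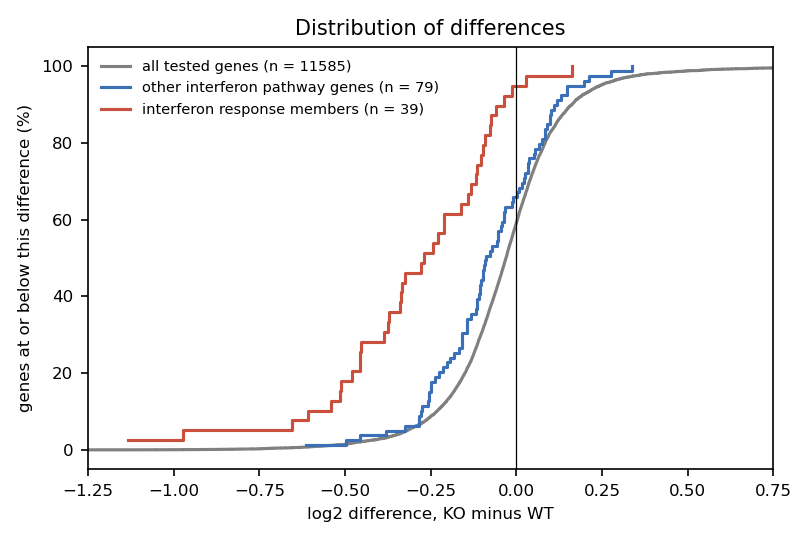
Cumulative share of genes (vertical axis, percent) at or below each log2 difference, KO minus WT (horizontal axis), for the 39 tested interferon response genes, 79 other genes of the interferon pathway and all 11585 tested genes. The curve of the response genes lies to the left of the others, with a median of -0.27 against -0.088 for the pathway genes and -0.030 for all genes.

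The members spread more within a genotype than genes in general. Their median SE was 0.095 against 0.068 over all tested genes, and the median SD within a genotype was 0.16 against 0.098. The mean over the 40 measured members was 9.03, 8.96, 9.09 and 9.26 in WT and 8.76, 8.58, 8.76 and 9.003 in KO. KO replicate 4 lay above WT replicate 2, so the groups overlapped, while the other 3 KO arrays lay below every WT array. The group means were 9.08 ± 0.13 and 8.78 ± 0.17 (SD, n = 4 each), a difference of -0.31. With each array centred on its own median the difference was -0.34 and the groups did not overlap. That centring made 15 members lower, and 1326 of 1710 called genes lower, against 988 of 1503 as deposited. Over the 28 tested members that were not called, the mean difference was -0.21 and the groups overlapped.

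The sensors of viral nucleic acid held 3 of the called genes among 5 tested, with a median difference of -0.32. Ifih1, which encodes the long double-stranded RNA sensor MDA5, read 9.47, 9.41, 9.37 and 9.60 in WT and 9.14, 8.99, 9.10 and 9.28 in KO. The difference was -0.33 (SE 0.075, adjusted p = 0.0197). Both genotypes were tight here, and the highest KO array stayed below the lowest WT array. Dhx58, the gene of LGP2, which modulates MDA5, read 8.54, 8.52, 8.73 and 8.75 in WT against 8.34, 8.08, 8.26 and 8.38 in KO, a difference of -0.37 (SE 0.081, adjusted p = 0.0181). Ddx60, a helicase linked to the same sensors, whose promoter matches are printed above, read 9.15, 8.86, 8.96 and 8.96 in WT against 8.65, 8.54, 8.73 and 8.72 in KO, a difference of -0.32 (SE 0.072, adjusted p = 0.0189). In these genes the KO level was 1.25 to 1.29-fold below WT. Zbp1, a sensor of Z-form nucleic acid, differed by -0.24 (adjusted p = 0.112), and Trim25, a ubiquitin ligase of the RIG-I pathway, by 0.027 (adjusted p = 0.728). The mean over the 5 genes lay between 9.54 and 9.68 in WT and between 9.23 and 9.48 in KO, without overlap.

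Among the other antiviral effectors 5 of 10 tested genes were lower in KO, with a median difference of -0.46. Apol9b, an interferon-induced apolipoprotein L of the mouse, read 7.22, 7.35, 7.95 and 8.10 in WT and 6.63, 6.32, 6.21 and 6.92 in KO. WT replicates 1 and 2 were low for their genotype, yet every KO array lay below them. The level fell from 7.65 ± 0.43 to 6.52 ± 0.32 (SD, n = 4 each), a difference of -1.13 (SE 0.21, 2.19-fold, adjusted p = 0.0102), which ranked 2 from the lowest of the 11585 differences. Apol9a, its paralog with the same promoter stretch, read 7.34, 7.62, 8.07 and 8.28 in WT and 7.28, 6.91, 7.24 and 7.26 in KO. Here WT replicate 1 stood only just above the KO arrays, and the difference was -0.66 (SE 0.19, adjusted p = 0.0453). Signals of such close paralogs may not be told apart by the probes.

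Isg20, an RNA exonuclease, had the lowest adjusted p of the members. It read 9.20, 9.32, 9.33 and 9.53 in WT and 8.82, 8.75, 9.02 and 8.97 in KO. The spread was small in both genotypes, 9.35 ± 0.13 and 8.89 ± 0.12 (SD, n = 4 each), and the difference was -0.46 (SE 0.082, 1.37-fold, adjusted p = 0.0083). Cmpk2, a mitochondrial nucleotide kinase, read 8.02, 8.22, 8.32 and 8.53 in WT and 7.81, 7.65, 7.82 and 7.99 in KO, a difference of -0.46 (SE 0.11, adjusted p = 0.0233). KO replicate 4 and WT replicate 1 nearly met in this gene. Rtp4, a zinc-finger protein that was first described as a transporter of receptors, read 9.42, 9.37, 9.54 and 9.72 in WT and 8.98, 8.66, 9.01 and 9.34 in KO. Its difference was -0.52 (SE 0.13, adjusted p = 0.0313), with KO replicate 4 just below WT replicate 2.

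Rsad2, the gene of viperin, which makes an antiviral nucleotide, lies beside Cmpk2 in the genome but was not called. It read 8.16, 7.43, 8.32 and 8.44 in WT and 7.63, 7.82, 7.61 and 7.37 in KO, a difference of -0.48 (SE 0.20, adjusted p = 0.138). WT replicate 2 fell within the KO range, and the other WT arrays lay above it. Without WT replicate 2 the adjusted p was 0.00753. The remaining tested effectors had differences of -0.27 for Bst2 (tetherin, which holds budding virus at the cell surface), -0.16 for Eif2ak2 (the RNA-dependent kinase PKR), -0.037 for Samhd1, which depletes nucleotides, and -0.013 for Trim30a. None of these 4 passed the test, with adjusted p from 0.235 to 0.943. Mx1, a dynamin-like GTPase whose gene is defective in C57BL/6 mice, lay below the intensity filter, at 3.88 to 4.91 in WT and 3.39 to 4.08 in KO.

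**Figure D2:**
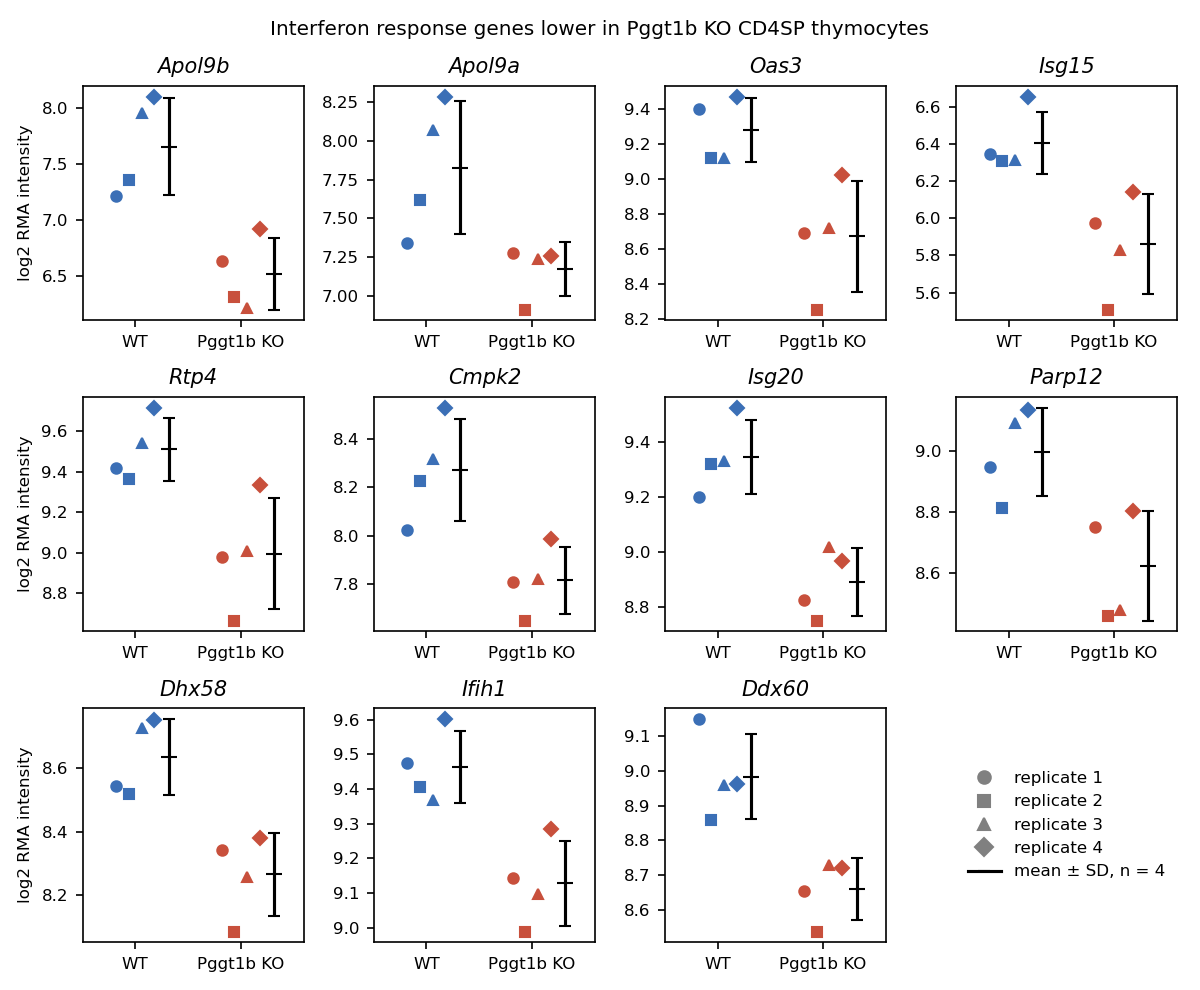
Log2 RMA intensity (vertical axes) of each interferon response gene called lower in KO, with 1 point per array, a marker shape per replicate and bars for mean ± SD (n = 4). In each of the 11 genes the 4 KO points lie below the 4 WT points, with the largest gap in means in Apol9b (7.65 against 6.52).

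The oligoadenylate synthetase family, of which some members make the signal that switches on RNase L, had 1 called gene among 4 tested and a median difference of -0.50. Oas3 read 9.40, 9.12, 9.12 and 9.47 in WT and 8.69, 8.25, 8.72 and 9.02 in KO. Its difference was -0.61 (SE 0.15, 1.52-fold, adjusted p = 0.0284), and KO replicate 4 was the KO array nearest to WT. Oasl2 had a larger difference that was not called. It read 9.89, 9.54, 10.01 and 10.30 in WT and 8.65, 8.19, 9.29 and 9.72 in KO, a difference of -0.97 (SE 0.29, adjusted p = 0.0591) that ranked 9 from the lowest of all tested genes. KO replicate 4 exceeded WT replicate 2, and the KO SD was 0.68 against 0.31 in WT. Oas2 differed by -0.34 (adjusted p = 0.401), with KO replicate 2 far below the rest at 8.69 and KO replicate 4 the highest of all arrays at 10.07. Oasl1 differed by -0.38 (adjusted p = 0.327).

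The ISG15 system had 1 called gene among 3. Isg15, the ubiquitin-like protein that is attached to other proteins and also secreted, read 6.34, 6.31, 6.31 and 6.65 in WT and 5.97, 5.51, 5.83 and 6.14 in KO, a difference of -0.54 (SE 0.13, 1.46-fold, adjusted p = 0.0262). WT replicate 4 stood above the 3 other WT arrays, and all KO arrays lay below them. Usp18, which removes ISG15 and restrains the receptor, read 10.38, 10.26, 10.37 and 10.72 in WT and 9.91, 9.49, 9.95 and 10.33 in KO. The difference was -0.51 (SE 0.16, adjusted p = 0.0662), and KO replicate 4 alone overlapped with WT. Herc6, the ligase that attaches ISG15 in mice, differed by -0.14 (adjusted p = 0.357).

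Of the PARP genes, Parp12, a mono-ADP-ribosyltransferase that blocks viral replication, was lower in KO. It read 8.95, 8.81, 9.09 and 9.14 in WT and 8.75, 8.46, 8.48 and 8.80 in KO, a difference of -0.38 (SE 0.0996, adjusted p = 0.0370). The lowest WT array and the highest KO array were only just apart. Parp9 differed by -0.21 (adjusted p = 0.172) and Parp14 by -0.13 (adjusted p = 0.453).

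The IFIT family, whose products bind viral RNA and block its translation, had 0 called genes among 3 by limma, with 1 at an unadjusted p under 0.05, and its differences spanned -0.45 to 0.16. Ifit1 lay between 10.10 and 10.60 in WT and between 9.55 and 10.11 in KO, a difference of -0.45 (SE 0.14, adjusted p = 0.0641). Ifit3 lay between 7.17 and 7.39 in WT and between 6.95 and 7.53 in KO, a difference of -0.077 (SE 0.11, adjusted p = 0.702). Ifit2 lay between 7.98 and 8.36 in WT and between 8.22 and 8.55 in KO, a difference of 0.16 (SE 0.095, adjusted p = 0.292). Ifit1 and Ifit3 thus both hold promoter matches, as printed above, and have differences of unlike size. The difference between them was not tested.

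The interferon-inducible GTPases, which act at membranes of vacuoles that hold pathogens, had 0 of 3 tested genes called by limma and 1 at an unadjusted p under 0.05. Irgm1 differed by -0.28 (adjusted p = 0.168), Igtp by -0.21 (adjusted p = 0.311) and Gbp3 by -0.097 (adjusted p = 0.454). Of the other induced genes, Xaf1, a promoter of cell death, differed by -0.34 (adjusted p = 0.0615) and Ifi35 by -0.059 (adjusted p = 0.689). The 5 probe sets shared with another symbol were left out of the test. That of Ifi47 and Olfr56 lay between 9.10 and 9.41 in WT and between 8.75 and 8.9997 in KO, without overlap. The other 4 overlapped, and differed by -0.31 (Gbp2 and Gbp2b), -0.14 (Dtx3l and Parp9), -0.11 (Oas1a and Oas1g) and -0.046 (Ifi27l2a and Ifi27l2b).

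The receptor subunits and the transcription factors at the head of the pathway held 0 called genes among 6 tested by limma, and 1, Irf7, at an unadjusted p under 0.05. Ifnar1 read 11.04, 11.13, 11.10 and 10.95 in WT and 10.94, 11.04, 11.04 and 10.91 in KO, a difference of -0.074 (SE 0.058, adjusted p = 0.438). Ifnar2 read 10.03, 10.37, 10.25 and 10.26 in WT and 10.17, 10.05, 10.10 and 10.11 in KO, a difference of -0.12 (SE 0.072, adjusted p = 0.311). The genotypes overlapped in both.

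Stat2, which pairs with another STAT protein and with IRF9, read 9.59, 9.57, 9.64 and 9.80 in WT and 9.61, 9.44, 9.47 and 9.71 in KO (difference -0.090, SE 0.076, adjusted p = 0.475). Irf9, the DNA-binding partner, read 10.36, 10.32, 10.38 and 10.38 in WT and 10.23, 10.18, 10.20 and 10.41 in KO (difference -0.10, SE 0.058, adjusted p = 0.276). In Irf9 the first 3 KO arrays lay below all WT arrays and KO replicate 4 above them. Irf7, which amplifies interferon production, read 10.45, 10.38, 10.43 and 10.59 in WT and 10.17, 10.02, 10.31 and 10.44 in KO (difference -0.23, SE 0.090, adjusted p = 0.125). Irf1, a factor also induced by interferon gamma, read 9.51, 9.37, 9.51 and 9.55 in WT and 9.41, 9.31, 9.18 and 9.57 in KO (difference -0.12, SE 0.083, adjusted p = 0.394). KO replicate 4 was the highest KO array in all of these factors.

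**Figure D3:**
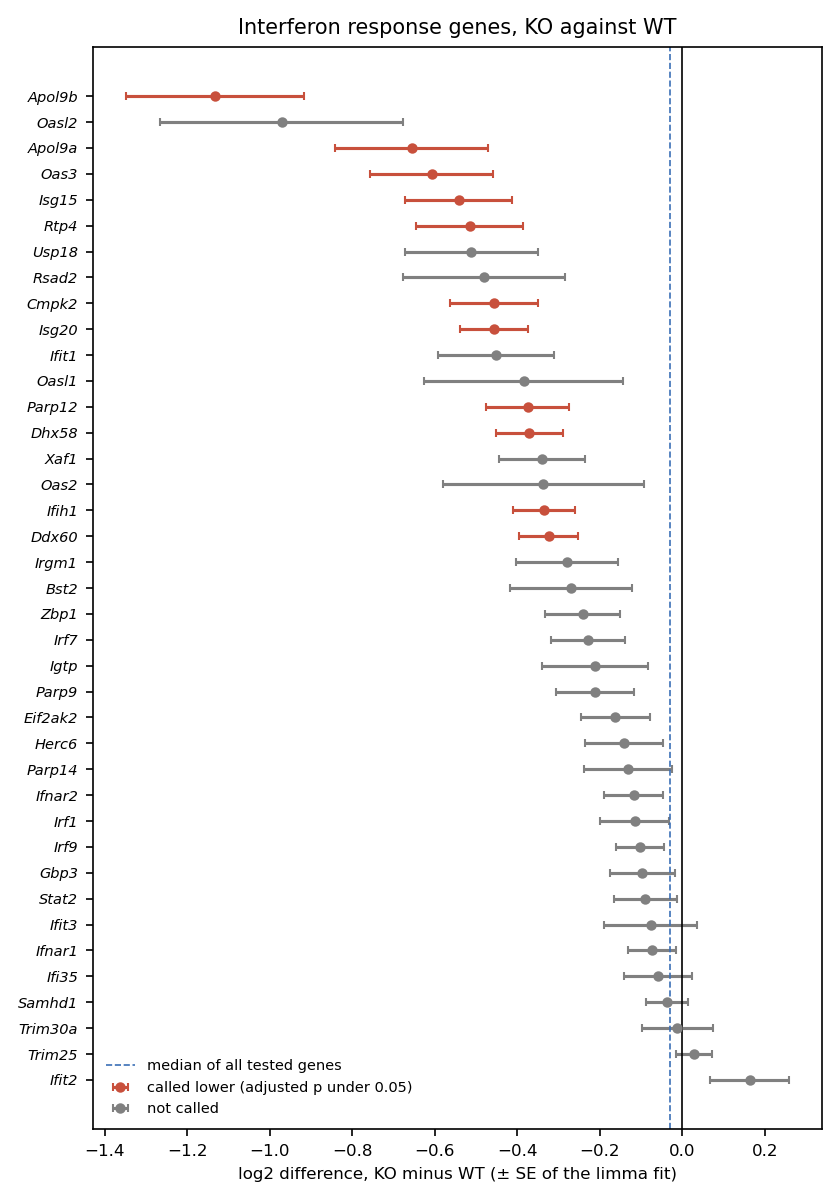
Log2 difference, KO minus WT (horizontal axis), with the SE of the limma fit as bars, for each of the 39 tested members (vertical axis), with called genes in their own colour and a dashed line at the median of all tested genes, -0.030. Differences run from -1.13 (Apol9b) to 0.16 (Ifit2), and 37 of 39 points lie below 0.

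The members shared much of their order of arrays within each genotype. WT replicate 4 was the highest WT array in 33 of the 39 members and KO replicate 4 the highest KO array in 32, and both held in 29. KO replicate 2 was the lowest KO array in 29 members and the lowest of all 8 arrays in 26. Of the 39 members, 28, 30 and 29 lay below every WT array in KO replicates 1, 2 and 3, against 13 in KO replicate 4. The share of all tested genes that did so was not counted for single KO arrays, so these counts only compare the arrays. Relative to the WT mean of each gene, the members averaged -0.31, -0.50, -0.31 and -0.079 in KO replicates 1 to 4.

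**Figure D4:**
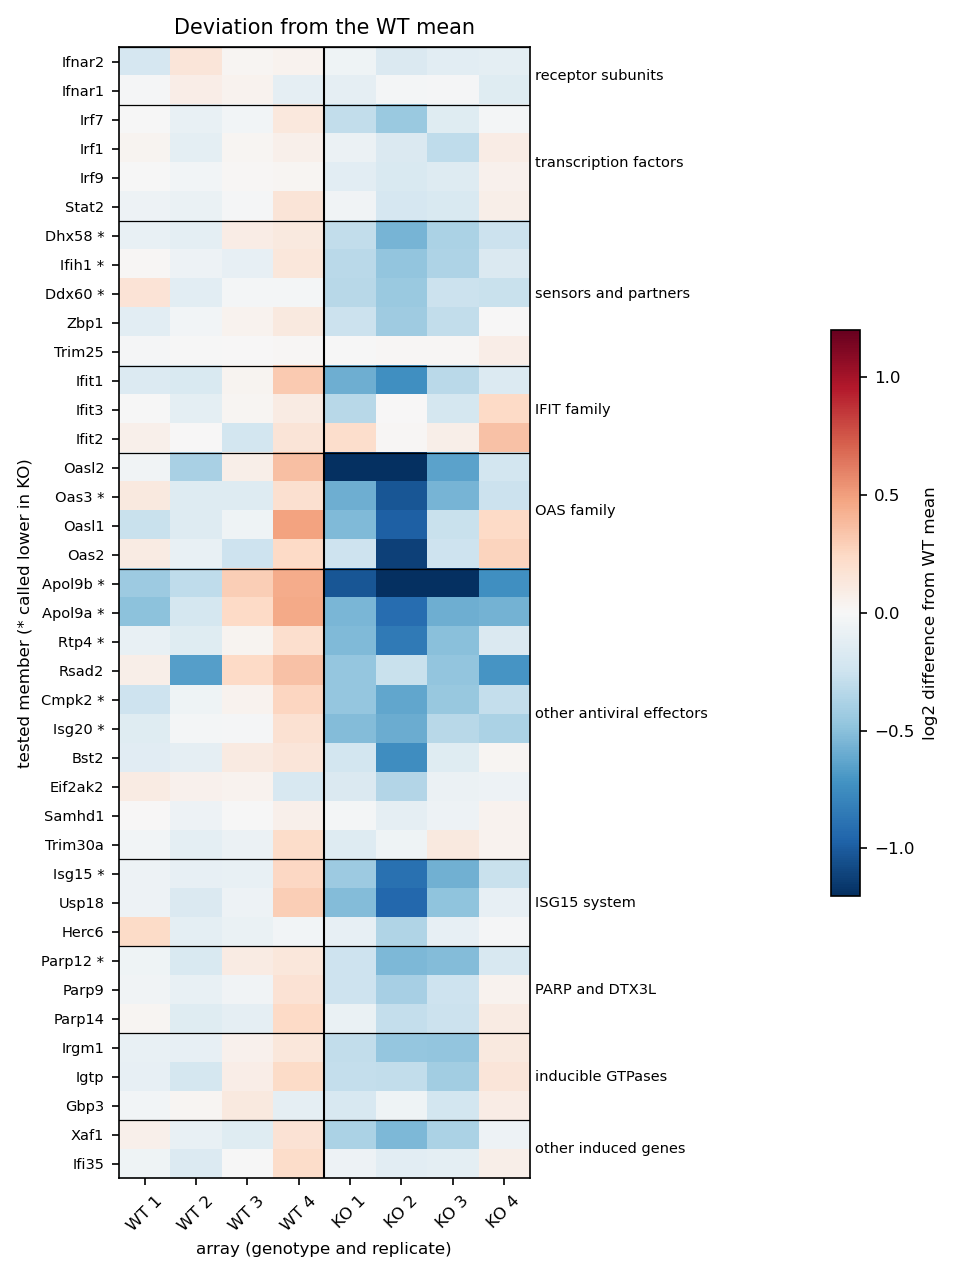
Log2 difference of each array from the WT mean of the gene (colour), for the 39 tested members (vertical axis, asterisk for called lower) on the 8 arrays (horizontal axis), where the darkest blue also stands for values past the end of the scale (Oasl2 and Apol9b). KO replicate 2 is the lowest column, with a mean of -0.50, and KO replicate 4 is the KO column nearest to WT, with -0.079.

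As a description of this shared movement, deviations from the genotype means were correlated over the 8 arrays, which share their RNA, hybridisation and normalization across all genes. The mean pairwise Pearson r was 0.50 between members (median 0.62) and 0.030 between all tested genes. The correlation of a member with the mean of the other members was above 0.8 in 24 members and above 0.9 in 10. It was highest for Rtp4 (0.99), Usp18 (0.98) and Parp9 (0.98). It was lowest for the receptor gene Ifnar1 (-0.80), for Rsad2 (0.06) and for Ifnar2 (0.11). Rtp4 was among the called genes, and Usp18 and Parp9 were not.

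Since replicate 4 of both genotypes stood apart on the Trim genes and was high in most members, the comparison was repeated without them. That choice was made after the values of the members were seen, so the fit is not an independent repeat. With WT replicates 1 to 3 and KO replicates 1 to 3, 12 members were lower and 0 higher, 8 of them among the 11, while 4.94% of all tested genes were lower. Oasl2 (adjusted p = 0.040), Usp18 (0.032), Irgm1 (0.028) and Xaf1 (0.028) were called there, and Ddx60, Apol9a and Parp12 were not. In 27 of the 39 members KO replicates 1 to 3 all lay below WT replicates 1 to 3, which 20.5% of all tested genes did. Between both replicates 4 alone, KO was lower than WT in 30 members, by a mean of -0.24 over all 39, against -0.32 between the other replicates. That sets 1 array against 1 array that is not its pair, and members that move together are not replicates. The share of all tested genes lower there was not counted. Why these arrays stand apart was not tested.

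**Figure D5:**
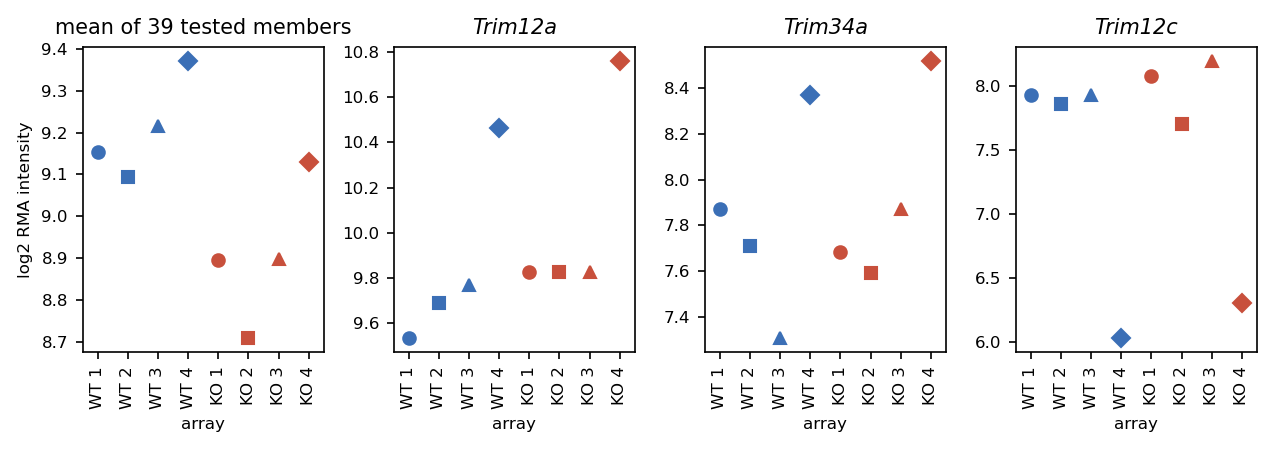
Log2 RMA intensity (vertical axes) on each array (horizontal axes) of the mean of the 39 tested members and of Trim12a, Trim34a and Trim12c. Replicate 4 of both genotypes is the highest of its genotype in the member mean (9.37 in WT, 9.13 in KO), Trim12a and Trim34a, and the lowest in Trim12c.

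The count of called members changed when arrays were left out or the heat-shock level entered the fit as a covariate. These fits rest on fewer arrays or hold 1 more term than the main fit, and the part of that in the counts was not tested. When 1 array was left out the count was 4 without KO replicate 3, where 5.28% of all tested genes were lower. It was 17 without KO replicate 4, where 6.24% were. It was 5 without KO replicate 1 (4.41% of all genes lower) and 7 without KO replicate 2 (5.03%). For the WT arrays it was 9 without replicate 1 (8.16%), 11 without replicate 2 (4.26%), 6 without replicate 3 (5.17%) and 6 without replicate 4 (6.72%). When the Hspa1a and Hspa1b level entered the fit as a covariate 4 members were called, Isg20, Apol9b, Dhx58 and Parp12, and 4.52% of all tested genes were lower. The median over the members was -0.25 in that fit, 18 were lower at an unadjusted p under 0.05, and the other 7 called genes had adjusted p between 0.0523 and 0.0769. Without KO replicates 1 and 2, the arrays with the highest heat-shock levels, 0 members were called by limma and 11 were lower at an unadjusted p under 0.05. In that fit 1.05% of all tested genes were lower, the median over the members was -0.12, and the 11 genes had differences between -0.26 (Ddx60) and -1.09 (Apol9b) with adjusted p between 0.0967 and 0.235. At the unadjusted cutoff, the share of all tested genes was not counted for the heat-shock fit or for this one. Isg20 and Apol9b were the 2 members that kept their call whichever single array was left out, with adjusted p up to 0.0294 and 0.0320.

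The other genes of the pathway were taken from lists of 109 symbols that hold no member, of which 97 were measured and 79 tested. Of these, 8 (10.1%) were lower and 1 higher, with a median difference of -0.088. Of all tested genes 8.53% were lower, which is near the 10.1% here, and 4.45% were higher, beside 1 of 79 here. The calls below are therefore given gene by gene and not as a result about the pathway. That count of 8 was 5 without WT replicate 4, 4 without KO replicate 1 or KO replicate 3, 3 without KO replicate 2 and 3 without replicate 4 of both genotypes. Ifngr2, Lgals3bp, Lgals9, Ogfr and Psmb9 lost their call in the last of these fits, with adjusted p between 0.0522 and 0.0983. Without KO replicates 1 and 2, Mx2 and Tor3a were called, and the other 7 had adjusted p between 0.050011 (Ikbke) and 0.278. Of the interferon genes themselves, Ifnb1, Ifna2, Ifne, Ifnk and Ifng lay below the filter. The 2 tested ligands, Ifna4 (difference 0.21, adjusted p = 0.0702) and Ifna1 (0.11, adjusted p = 0.423), were not called by limma, and Ifna4 had an unadjusted p under 0.05. Mean levels over all arrays were 8.32 for Ifna4 and 7.91 for Ifna1, and 3.35 to 4.74 for the ligands below the filter. Whether the probe sets of Ifna4 and Ifna1 read interferon transcripts was not tested.

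Of 9 kinases, other receptors and factors, 1 was lower. Ifngr2, a subunit of the interferon gamma receptor, read 10.66, 10.77, 10.77 and 10.69 in WT and 10.61, 10.49, 10.48 and 10.46 in KO, a difference of -0.21 (SE 0.054, adjusted p = 0.0313). Its KO arrays all lay below its WT arrays. Jak1, the kinase bound to IFNAR2, differed by 0.098 (adjusted p = 0.199) and Stat3 by -0.088 (adjusted p = 0.413).

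Among 9 genes that sense nucleic acid or relay the signal towards interferon production, 1 was higher. Ikbke, a kinase that phosphorylates interferon regulatory factors and STAT proteins, read 11.18, 11.03, 11.00 and 11.01 in WT and 11.39, 11.33, 11.39 and 11.45 in KO. All KO arrays lay above all WT arrays, and the difference was 0.34 (SE 0.056, 1.26-fold, adjusted p = 0.00549). Ddx58, the gene of the RNA sensor RIG-I, differed by -0.052 (adjusted p = 0.587). Of 8 negative regulators, 0 were called by limma and 1, Socs1, an inhibitor of JAK kinases, had an unadjusted p under 0.05 (difference -0.32, adjusted p = 0.125). Ptpn6 differed by -0.035 (adjusted p = 0.793) and Pias1 by 0.089 (adjusted p = 0.191).

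Of 39 further interferon-induced genes, 5 were lower, 0 were higher, and the median difference was -0.13. Mx2, a dynamin-like antiviral GTPase, read 7.30, 7.56, 7.55 and 7.34 in WT and 7.05, 6.52, 6.93 and 6.79 in KO, a difference of -0.61 (SE 0.11, adjusted p = 0.00887). Tor3a, an interferon-induced ATPase of the torsin family, read 7.72, 7.77, 7.77 and 7.70 in WT and 7.42, 7.29, 7.35 and 7.37 in KO, a difference of -0.38 (SE 0.048, adjusted p = 0.0016). In neither gene did the genotypes overlap, and neither was highest in replicate 4 of both genotypes. Lgals3bp, a secreted glycoprotein that binds galectins, fell by 0.26 (adjusted p = 0.0353), Ogfr, the opioid growth factor receptor, by 0.25 (adjusted p = 0.0356), and Lgals9, a galectin, by 0.19 (adjusted p = 0.0401). Sp100 differed by 0.099 (adjusted p = 0.177) and Sp110 by -0.096 (adjusted p = 0.224).

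Class I antigen presentation, which both interferon types raise, had 2 lower genes among 12. Psmb8 and Psmb9, catalytic subunits of the immunoproteasome, both differed by -0.28, with adjusted p of 0.0138 and 0.0381. B2m differed by 0.038 (adjusted p = 0.622) and H2-K1 by 0.084 (adjusted p = 0.354).

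In the promoters, 16 of the 32 tested members with a RefSeq window held the motif, as did 339 of the 9124 tested genes with one (3.72%) and 1079 of all 27025 genes in the table (3.99%). Among the called members the motif was found in 6 of 9, namely Apol9a, Apol9b, Ddx60, Ifih1, Isg15 and Oas3, and among the members not called in 10 of 23. Apol9a and Apol9b carry an identical stretch and are counted separately. The match of Ifih1 lies after the start, as does that of Eif2ak2 among the members not called. In the list of further interferon-induced genes the motif was found in 27 of 43. The letters GAAANNGAAA were not found in the windows of Cmpk2, Isg20 and Parp12. A match is a description of the window and says nothing of binding.

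Levels of cell markers were set beside these results. The 8 tested markers of CD4 T cells were not called, and their mean lay between 11.12 and 11.17 in WT and between 11.07 and 11.11 in KO, with Cd4 at 12.27 and 12.26 and Cd3e at 12.50 and 12.47 in WT and KO. Of 9 markers of mature single-positive thymocytes 7 were higher, with list means of 10.04 to 10.22 in WT and 10.74 to 10.83 in KO, and of 7 markers of immature ones 3 were lower (9.33 to 9.55 and 8.94 to 9.21). Of 3 CD8 lineage genes, Cd8a was lower (-0.74, adjusted p = 0.035), with list means of 9.42 to 9.68 and 8.90 to 9.33. Of 12 proliferation genes 7 were lower (8.67 to 9.08 and 8.34 to 8.60). The part of these shifts in the interferon result was not tested. Markers of B cells (5.25 to 5.43 over all arrays) and of myeloid and conventional dendritic cells (5.57 to 5.89), of which 1 of 5 and 4 of 7 passed the filter, held 0 called genes by limma, with 0 and 1 at an unadjusted p under 0.05. Among markers of plasmacytoid dendritic cells, which make interferon, the mean of the 6 measured lay between 5.84 and 5.98 in WT and between 5.68 and 5.92 in KO. The mean of the 3 tested, Tcf4, Ccr9 and Cox6a2, lay between 7.81 and 7.97 in WT and between 7.54 and 7.71 in KO. That is without overlap, a difference of -0.28. All 3 tested had differences below 0, 2 at an unadjusted p under 0.05, and Ccr9 is also in the list of immature thymocytes. The 3 below the filter, Siglech, Klk1 and Clec10a, went the other way, by 0.045, 0.13 and 0.015. The part of the shift of the tested 3 in the interferon result was not tested. Tcf4 was lower (-0.34, adjusted p = 0.00379), and Siglech lay below the filter at 4.51 and 4.56 in WT and KO. Of natural killer and innate-like markers, Klrd1 was higher and Zbtb16 lower, with list means of 5.32 to 5.93 and 5.79 to 5.84, and 3 of 6 epithelial markers passed the filter and 0 were called, with 0 at an unadjusted p under 0.05.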

How the data were processed

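RNA of 8 sorted samples, 4 per genotype, was amplified from nanogram amounts, labelled with biotin and hybridised, 1 array per sample, per the labels' protocols. The authors deposited log2 intensities per probe set. The submitters' processing notes name RMA and Affymetrix Expression Console 1.1. Genome build, annotation release and filters are not given in the sources used. Background signal compresses differences of dim genes, and precision is limited by the number of arrays.

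The table held 41345 probe sets, 23521 with 1 symbol in the platform annotation, 1814 with several and 16010 not listed, for 22180 genes. The brightest single-symbol probe set by mean over all arrays stood for a gene, and genes with a mean of at least 5.56, the median of all probe sets, were tested (11585, with 10595 set aside). Array medians lay between 5.52 and 5.59. The test was two-sided, with lmFit and eBayes of limma 3.58.1 (R 4.3.3), genotype as its single term, and p-values were adjusted by Benjamini-Hochberg over all tested genes. Adjusted p-values are those of this fit except where the text names another, and calls were made at an adjusted p under 0.05. Alternatives changed the filter, probe set rule, scaling, weights, covariates, variance prior, threshold and arrays used. The script was tested on simulated data.

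The members, the other lists and the alternatives were chosen with earlier results of these data known, so no p is given for a list. Array values are given for called members, receptors, transcription factors and uncalled members among the 10 largest differences, and of the pathway lists the called genes and the 2 brightest per list are named. Others named (Trim12a, Trim12c, Trim34a, Socs1, Ifi44l and the markers) were chosen after their values were seen. RefSeq promoters of GRCm38.p6 were matched by symbol.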

Additional observations from a re-analysis of the deposited data

Results flagged for a closer look

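In the 78 groups of 4 arrays examined (39 tested members in each genotype), 2 values lay far from the other 3 arrays of their genotype by Dixon's test. Chance places about 5% of such groups past it. Apol9a read 6.91 in KO replicate 2, while the other KO arrays lay between 7.24 and 7.28. Isg15 read 6.65 in WT replicate 4, while the other WT arrays lay between 6.31 and 6.34. Apol9a lost its call without any 1 of 7 arrays, KO replicate 2 among them, and kept it without WT replicate 1. Isg15 lost its call without WT replicate 4 and without KO replicate 3. The cause of either value was not tested.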

How the results depend on the processing

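The count of members called lower, 11 of 39, was 1 at an adjusted p under 0.01, near the 2.07% of all tested genes that were lower there. It was 4 with the heat-shock covariate, 0 without KO replicates 1 and 2, and 4 to 17 when 1 array was left out. The shares of all tested genes in those fits are given above. The count of members was 8 to 16 under the other alternatives, and 0 members were higher in any. It was 15 with centred arrays, where 11.5% of all tested genes were lower. With the title number as covariate it was 16 (7.86% of all tested genes), and without the intensity filter 8 (2.51%). The count of other pathway genes called lower, 8, was 2 at an adjusted p under 0.01 (2.07% of all tested genes). Without the intensity filter it was 4 of 97 genes (2.51%), 3 of them among the 8. The other was Tlr3, which lies below the filter at a mean of 3.99 (adjusted p = 0.0171 in that limma fit). The count was 4 with the heat-shock covariate, 2 without KO replicates 1 and 2, and 3 without replicate 4 of both genotypes (chosen after the data were seen). When 1 array was left out it was 3 to 8. It was 12 with centred arrays (11.5% of all tested genes lower) and 11 with the intensity trend and robust prior (9.996%). It was 10 after a second quantile normalization (10.8%), and 7 to 9 in the rest (7.86% to 9.63%). The share of all tested genes was 8.53% in the main fit, so it too was higher in the fits with 10 to 12. The count called higher, 1, was 0 without KO replicates 1 and 2 and 1 to 2 when 1 array was left out. The difference of the member mean lay between -0.30 and -0.34 under the probe set, scaling and filter alternatives. With arrays left out the median difference of the members was -0.18 to -0.34 (1 array) and -0.12 (KO replicates 1 and 2). Of the values for single genes under an alternative, 771 kept direction and call, 104 lost the call, 23 gained it and 13 changed sign. These 13 belong to 5 genes never called: Trim30a (0.00957 with array weights, 0.038 with the heat-shock covariate, 0.080 without KO replicates 1 and 2, 0.042 without replicate 4 of both genotypes, and -0.055 to 0.062 when 1 array was left out), Ifi35 (0.0140 with the mean of its probe sets, -0.11 to 0.0138), Ifit3 (0.0129 without KO replicates 1 and 2, -0.18 to 0.00880), Oas2 (0.00923 without KO replicates 1 and 2) and Trim25 (-0.00686 with centred arrays). Mx2 and Tor3a were the genes called under every alternative. The cause of lost calls was not tested. No paired analysis was possible because the replicate numbers follow the order of deposit and pair no samples.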

Other observations

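Ifi44l, an interferon-induced gene below the intensity filter, read 6.53 in WT replicate 1 and 5.76 in KO replicate 3 and lay between 3.25 and 3.57 on the other 6 arrays. The high arrays are 1 of each genotype and are not those that stand apart on the Trim genes.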
